A study of Mus musculus with 6 samples.

Results

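The genes described here are the mouse zinc finger genes whose symbols run from Zfp600 to Zfp999, that is, every symbol made of Zfp and a 3-digit number of 600 or more. Of the 23396 genes in the deposited table, 139 carried such a symbol, and the highest number among them was Zfp964. They were chosen by name, but the range was set after a difference in Zfp810 had been seen in the same libraries, so their knockout and wild-type values are given as a description; counts of test calls stand beside their share over all genes and support nothing here. RNA came from the right kidney of male mice aged 6 months: 3 homozygous Far2 knockouts of the strain C57BL/6N-Far2tm2a(KOMP)Wtsi/2J, which carries a targeted Far2 allele, and 3 wild-type C57BL/6N mice. Far2 encodes a fatty acyl-CoA reductase, a peroxisomal enzyme that makes fatty alcohols. Ribosomal RNA was removed from total RNA and strand-specific libraries were made. Far2 itself had 40, 40 and 22 fragments in wild-type libraries 0, 1 and 2 and 28, 19 and 31 in knockout libraries 0, 1 and 2. The groups overlapped at this low level, and where the targeted allele interrupts the transcript is not given in the labels, so Far2 does not check the genotypes, which are taken from the labels. In whole kidney, fewer cells of a type and less RNA per cell cannot be told apart.

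Most proteins of this kind bind DNA through arrays of C2H2 zinc fingers, short folds in which a pair of cysteines and a pair of histidines hold a zinc ion and a few neighbouring residues read the bases. Many also carry a KRAB box, a short domain near the amino end that recruits the corepressor TRIM28, which in turn brings the histone methyltransferase SETDB1 and the HP1 proteins. Complexes of this kind are best known for silencing retrotransposons in early embryos, and the genes themselves lie in tandem arrays that grew by duplication. Others among the numbered Zfp genes have no KRAB box and act as transcription factors, ribosome assembly factors or splicing factors.

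A zinc finger pattern and a KRAB-like pattern were searched for in the translated coding sequences of 134 of the 139 genes. The number of fingers ranged from 0 to 33, with a median of 10. Zfp619 held 33. Zfp703, Zfp750, Zfp781, Zfp839, Zfp935 and Zfp957 had no match to the pattern. A KRAB-like box was found in 84 proteins, with a median of 12 fingers, and in 50 proteins none was found, with a median of 7. Members called with or without a box below are those with or without a match. A box that departs from the pattern would be missed. The proteins ranged from 76 residues in Zfp706 to 1788 in Zfp646.

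Promoter windows of 300 bases around the annotated start (RefSeq, GRCm38.p6) were matched for 117 members, taking the first listed start of each gene. The windows of 3 KRAB genes from 1 locus on chromosome 9 are shown because the genes differ in level while lying close together. Zfp810 and Zfp809 also differ in their knockout value, and Zfp872 was too low to be tested. Capitals mark every CG dinucleotide. They read 5′ to 3′ on the strand of the gene: Zfp810 at chr9:22307589-22307888 on the minus strand, Zfp809 at chr9:22225453-22225752 on the plus strand, and Zfp872 at chr9:22187916-22188215 on the plus strand.
Zfp810: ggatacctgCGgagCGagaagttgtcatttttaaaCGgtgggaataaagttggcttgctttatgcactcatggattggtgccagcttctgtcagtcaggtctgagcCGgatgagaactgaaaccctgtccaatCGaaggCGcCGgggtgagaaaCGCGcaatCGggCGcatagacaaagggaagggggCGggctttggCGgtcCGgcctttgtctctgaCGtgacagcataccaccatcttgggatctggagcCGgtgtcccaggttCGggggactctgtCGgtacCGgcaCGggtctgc
Zfp809: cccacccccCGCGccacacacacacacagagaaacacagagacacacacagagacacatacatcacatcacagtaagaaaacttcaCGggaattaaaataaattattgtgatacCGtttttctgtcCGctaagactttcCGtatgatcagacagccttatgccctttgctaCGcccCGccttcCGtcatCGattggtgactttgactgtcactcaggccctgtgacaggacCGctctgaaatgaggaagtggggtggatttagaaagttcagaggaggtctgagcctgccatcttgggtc
Zfp872: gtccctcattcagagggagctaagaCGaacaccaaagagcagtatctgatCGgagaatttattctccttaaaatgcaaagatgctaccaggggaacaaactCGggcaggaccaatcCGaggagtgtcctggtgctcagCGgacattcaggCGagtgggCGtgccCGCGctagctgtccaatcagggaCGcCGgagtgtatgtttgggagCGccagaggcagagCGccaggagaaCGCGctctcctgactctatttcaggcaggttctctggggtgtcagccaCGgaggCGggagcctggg
The Zfp810 window held 20 CG dinucleotides, that of Zfp809 11 and that of Zfp872 17. The letters CCAAT, read on both strands, occurred in all 3 windows, and GGGCGG occurred in that of Zfp810 alone. Over the members the median was 12 CG dinucleotides a window, against 20 in the 10188 protein-coding genes that were tested and 7 in all 27025 windows. Members with a KRAB box had a median of 10 (77 windows) and those without one 21.5 (38 windows). CCAAT, the core of the site bound by NF-Y, was present in 55.6% of member windows, in 63.6% of those of KRAB members, in 39.5% of those of members without a KRAB box, and in 37.9% of all windows. The E-box letters CACGTG were present in 14 of the 77 windows of KRAB members (18.2%), in 0 of the 38 of members without one, and in 7.24% of all windows. The 14 windows are not independent. Those of Zfp820, Zfp942, Zfp943, Zfp947, Zfp944, Zfp758 and Zfp946 lie in the same cluster on chromosome 17. Among these, the windows of Zfp942 and Zfp943 overlap, as do those of Zfp944 and Zfp758. In tested protein-coding genes CCAAT was present in 38.2% of windows and CACGTG in 1019 of 10188. GGGCGG, the GC box, was found in 40.3% of KRAB windows and 57.9% of windows without KRAB, both below the 62.8% of tested protein-coding genes, and in 35.9% of all windows. CCGGAAG, an ETS-type site, was found in 15.4% of member windows, 16.8% of those of tested protein-coding genes and 9.12% of all. None of these matches was tested as a binding site.

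Most members were transcribed in kidney at low levels. FPKM, the deposited fragment value normalised to transcript length and library size, was 1 or more in all 6 libraries for 113 of 139 members and 10 or more in all 6 for 10. The mean was under 1 FPKM in 23 members, from 1 to 5 in 79, from 5 to 10 in 22 and 10 or more in 15. A count filter kept 131 members among 14354 genes, and their median of 3.40 FPKM (quartiles 1.73 and 6.03) compared with 2.83 for the 182 tested genes Zfp1 to Zfp599 and 6.42 for all genes tested.

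**Figure D1:**
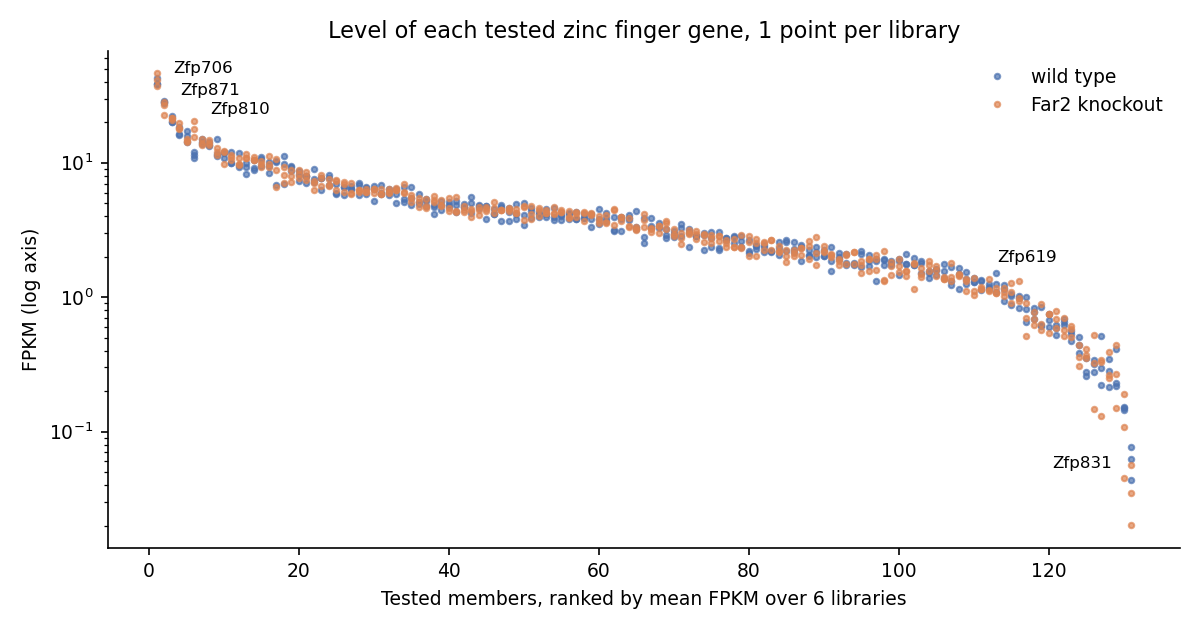
FPKM (log axis) of the 131 tested members in each library, ordered by mean level, with wild type in blue and Far2 knockout in orange. Zfp706, with a mean of 40.8 FPKM, is the leftmost gene, and the 3 knockout points of Zfp810 lie above its 3 wild-type points.

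The highest member was Zfp706, a small protein known for its part in the exit of embryonic stem cells from self-renewal. It stood at 42.8, 38.3 and 38.8 FPKM in wild-type libraries 0, 1 and 2, and at 37.4, 41.4 and 46.2 in knockout libraries 0, 1 and 2. The groups overlapped, with both the highest and the lowest value in knockouts. Zfp871, a KRAB gene, followed at 28.7, 28.3 and 27.8 FPKM in wild type and 28.4, 22.8 and 26.7 in knockout. Zfp644, a partner of the histone methyltransferases G9a and GLP, had 22.3, 20.2 and 20.2 FPKM in wild type and 21.4, 20.6 and 21.5 in knockout. Zfp655 (mean 17.7 FPKM), Zfp664 (15.1), Zfp810 (14.7), Zfp740 (14.3), Zfp809 (13.9), Zfp672 (12.3) and Zfp768 (11.5) completed the first 10. A KRAB box was found in 3 of these 10: Zfp871, Zfp810 and Zfp809. The 10 members with most fragments held 39.3% of all member fragments, and Zfp871 and Zfp706 together 16.1%.

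8 members did not pass the count filter, which does not follow total fragments alone. Zfp735 had no fragment in any library, and Zfp663, Zfp819 and Zfp936 had 1 fragment each over all 6. Zfp616 had 3, Zfp872 11, Zfp957 29 and Zfp600 55 fragments in all. The fragments of Zfp600 numbered 23, 4 and 11 in wild-type libraries 0, 1 and 2 and 2, 8 and 7 in those of knockouts. Nearest the filter among the members that passed were Zfp811 with 53 fragments, Zfp831 with 62 and Zfp648 with 69. Zfp811 thus had fewer than Zfp600, and values of all these genes rest on few fragments.

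Across samples the members as a whole held the same share of RNA in both genotypes within the spread between libraries. CPM values are fragment counts normalised to library sizes scaled by TMM, a trimmed-mean method. Summed over all 139, the level was 2336, 2265 and 2336 CPM in wild type and 2358, 2285 and 2336 CPM in knockout. The group means were 2312 ± 41.3 (SD, n = 3) and 2326 ± 37.7 CPM (SD, n = 3), so the difference was smaller than either SD. Their share of all fragments was 0.233 ± 0.0062% in wild type and 0.231 ± 0.0051% in knockout. Within a genotype the members varied as other genes did, with a median coefficient of variation of 9.19% (quartiles 6.90 and 12.5) against 9.38% for all genes tested. Wild-type library 1 held the lowest of the 6 values for 45 of the 131 tested members, where the other libraries held it for 12 to 23. The matching share over all genes was not computed. In that library the median deviation of log2 CPM from the mean of the 6 libraries was -0.042 for tested members. It was -0.013 for Zfp1 to Zfp599 and 0.005 for all genes tested.

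The libraries held between 15261362 and 20631158 fragments. Wild-type library 0 stood apart in markers of injury and of immune cells: 9 tubular injury genes summed to 1474 CPM there against 672 to 793 in the other 5 libraries, and 11 macrophage genes to 519 against 232 to 309. T and B cell markers reached 44.96 CPM in it and 14.7 to 30.2 elsewhere. Stromal markers summed to 169 to 266 CPM in wild type and 149 to 166 in knockout, and fat markers to 28.1 to 37.0 and 38.9 to 55.7. Most of the fat sum was Fabp4, at 27.5 to 35.0 CPM in wild type and 37.5 to 48.4 in knockout. The other fat markers, Adipoq, Plin1 and Cidec, were low and overlapped between the genotypes. Proximal tubule markers, which define the bulk of kidney cortex, were high in every library (33971 to 41008 CPM), and of 3 adrenal markers Cyp11b1 was at 0 throughout. The part of these differences in the members' values was not tested, and results without library 0 are given beside the counts they touch.

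Zfp810, a KRAB protein with 10 fingers, was the member with the largest difference upward. It lies on chromosome 9 between 22276748 and 22307648 of GRCm38 (mm10), on the minus strand, as ENSMUSG00000066829.7. It stood at 41.7, 38.1 and 42.7 CPM in wild-type libraries 0, 1 and 2 and at 56.4, 63.7 and 72.6 CPM in knockout libraries 0, 1 and 2. All 3 knockouts lay above all 3 wild-type values, and library 2 of the knockouts was the highest. The means were 40.8 ± 2.39 and 64.2 ± 8.11 CPM (SD, n = 3 each), a log2 fold change, knockout over wild type, of 0.65 ± 0.098 (SE), or 1.57-fold. Leaving out each library in turn gave 0.56 (without knockout library 2) to 0.74 (without knockout library 0), and 0.67 without wild-type library 0. In the authors' deposited table the group levels were 11.5 and 18.0 FPKM, with a log2 ratio of 0.65.

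The deposited locus of Zfp810 spans 22055459 to 22389206 on chromosome 9 and is shared with 14 other genes, of which 10 were tested. Zfp809, a KRAB gene of the same locus, is known for silencing murine leukaemia virus by binding its proline tRNA primer binding site. It stood at 24.1, 23.0 and 24.5 CPM in wild type and 24.6, 24.9 and 23.5 CPM in knockout, with a log2 fold change of 0.03 ± 0.075 (SE). Compared per length, Zfp809 lay above Zfp810 in each wild-type library, at 14.2, 13.4 and 13.5 against 12.03, 10.9 and 11.5 FPKM. In the knockouts the order was the other way round, with Zfp809 at 14.1, 14.7 and 13.6 and Zfp810 at 15.6, 17.8 and 20.5 FPKM. Zfp809 itself overlapped between the groups.

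Zfp653, which had no KRAB-like box, stood at 5.41, 6.97 and 5.71 CPM in wild type and 6.95, 6.45 and 5.18 CPM in knockout. It differed on the log2 scale by 0.03 ± 0.16 (SE), and -0.06 to 0.16 with 1 library left out. Zfp872 was all but silent, with 2, 2 and 1 fragments in the wild-type libraries against 3, 3 and 0 in those of knockouts, while its promoter window shown above held 17 CG dinucleotides. Zfp599, outside the number range, overlapped between groups at 1.89 ± 0.513 and 1.63 ± 0.404 CPM. Of the 10 tested neighbours in the shared locus 6 were higher in knockouts by sign, against 48.3% of all genes. Zfp810 exceeded each of them in log2 fold change, but it was known to differ beforehand, so nothing is read from this. Among the 6, Acp5, the tartrate-resistant acid phosphatase gene, was at 43.4, 43.4 and 39.8 against 47.9, 49.2 and 44.0 CPM, without overlap. Its log2 fold change was 0.16 ± 0.077 (SE). Elof1, a transcription elongation factor gene, also separated, at 33.3, 32.6 and 31.1 against 35.0, 35.8 and 35.4 CPM (0.13 ± 0.073). Ecsit, an assembly factor of respiratory complex I, differed by 0.16 ± 0.073 on the same scale, with overlap between groups. Over all genes 7.12% separated upward. Bbs9, outside the shared locus but within 250 kb, also separated (0.19 ± 0.081). How fragments were divided among the genes of this shared locus is not given in the sources used here.

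**Figure D2:**
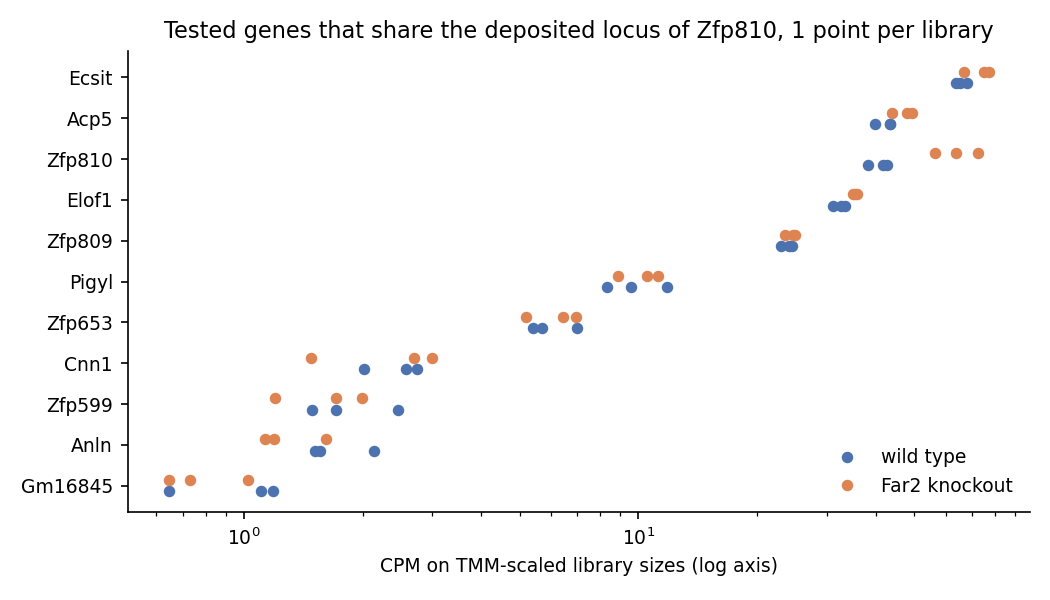
CPM (log axis) of the 11 tested genes that share the deposited locus of Zfp810, with 1 point per library, wild type in blue and Far2 knockout in orange. The points of Zfp810 form separate groups, at 38.1 to 42.7 and 56.4 to 72.6 CPM, while those of Zfp809 and Zfp653 overlap; Acp5 and Elof1 also separate, at 39.8 to 43.4 against 44.0 to 49.2 CPM and 31.1 to 33.3 against 35.0 to 35.8 CPM.

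The members whose log2 CPM ran most like that of Zfp810 over the 6 libraries were Zfp708 (Pearson r = 0.92), Zfp873 (0.89), Zfp655 (0.85), Zfp879 (0.85) and Zfp637 (0.84). These 5 were ranked among 130 members over 6 points that share 2 genotypes, so the values describe these libraries only. Zfp873 stood at 4.61, 4.55 and 4.93 CPM in wild type and 4.84, 5.72 and 5.66 in knockout. Zfp879 stood at 1.59, 1.38 and 1.62 against 1.54, 1.79 and 2.05 CPM. Both overlapped between the genotypes.

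With edgeR's quasi-likelihood fit of 14354 genes, 0 members had an adjusted p under 0.05, and the share of all genes called was 0.0%. At an unadjusted p under 0.05, 2 members were higher, Zfp810 and Zfp655, against 3.17% of all genes, and 0 were lower, against 5.14%. Without wild-type library 0 these counts were 8 higher, where 4.11% of all genes were, and 5 lower, where 7.06% were. DESeq2 called 1 member, Zfp810, where 0.0557% of genes were called higher and 0.0348% lower. Run on all genes with a count, DESeq2 again called Zfp810 and no other member, against 0.0699% higher and 0.04% lower. The authors' deposited table tested 123 members, of which 0 had a q under 0.05, against 0.657% of all genes, and 2 (Zfp810 and Zfp637) had a p under 0.05, against 7.39%. The members were chosen with this contrast known, so nothing is read from these counts.

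The log2 fold changes of the 131 members had a median of 0.02, with quartiles of -0.09 and 0.11. Of these members 108 (82.4%) lay within 0.2 of 0, against 79.7% of the tested genes Zfp1 to Zfp599 and 75.9% of all genes. A typical standard error was 0.12, the median over members. By sign, 72 were higher and 59 lower in knockouts. Their extremes were Zfp810 at 0.65 and Zfp831 at -0.70 ± 0.43 (SE), a gene of 62 fragments in all, picked out after its value was seen. For the 182 tested genes Zfp1 to Zfp599 the median was -0.02, and for all genes -0.0066.

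In 8 members (6.11%) the 3 knockout CPM values all lay above the 3 wild-type values, against 7.12% of all genes, and in 4 (3.05%) they all lay below, against 6.96%. Without wild-type library 0, with 3 libraries against 2, the counts were 21 and 13, and the shares of all genes 14.2% and 15.4%. Zfp655, at 60.0, 51.4 and 52.9 CPM in wild type and 60.8, 61.6 and 64.9 in knockout, differed by 0.19 ± 0.078 (SE), and wild-type library 0 came within 1 CPM of the lowest knockout. Zfp637, a protein of 6 fingers, stood at 12.1, 12.2 and 11.1 CPM in wild type and 13.4, 12.96 and 14.5 in knockout, a log2 fold change of 0.21 ± 0.095 (SE). Zfp708, a KRAB protein with 16 fingers whose locus overlaps 1 other gene, had 7.15, 6.36 and 6.49 against 7.40, 8.44 and 8.19 CPM (0.26 ± 0.12). Zfp617 differed by 0.18 ± 0.086, Zfp763 by 0.18 ± 0.11, Zfp930 by 0.20 ± 0.097 and Zfp773, at about 1 CPM, by 0.37 ± 0.27. Without wild-type library 1 the value of Zfp763 was 0.07 and that of Zfp617 0.12, and on log2(FPKM + 1) that of Zfp773 was 0.09. All 4 carry a KRAB-like box and lie in gene clusters, as do Zfp810 and Zfp708, while for Zfp655 and Zfp637 neither holds. Among the 131 tested members, 51 had both, and 11.8% of these 51 had all knockouts above wild type. Their median transcript GC content was 41.1%. Of all genes, 10.8% did so at a transcript GC under 40% and 9.38% at 40 to 45%.

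Of the 4 members with all knockouts below wild type, the KRAB-like pattern was matched in 1, Zfp605. This gene stood at 6.80, 5.74 and 6.10 CPM in wild type and 5.41, 5.18 and 4.74 in knockout (-0.28 ± 0.14, and -0.18 on log2(FPKM + 1)). Zfp746, also called PARIS, is a parkin substrate that represses the gene of PGC-1 alpha. It stood at 16.0, 17.3 and 16.5 CPM in wild type and 15.8, 14.4 and 14.1 in knockout, a log2 fold change of -0.17 ± 0.088 (SE), and knockout library 0 lay just under the wild-type values. Zfp651 had 11.6, 13.6 and 11.1 CPM in wild type and 10.4 in each knockout (-0.22 ± 0.11), and without wild-type library 1 the value was -0.12. Zfp865, with 20 fingers, was at 7.44, 7.11 and 7.27 against 6.66, 4.52 and 7.01 CPM (-0.25 ± 0.16), and its mean rested on knockout library 1, without which the value was -0.09.

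Several other members in which no KRAB-like box was found have described roles. They are given here for those roles, picked after their values were seen. Zfp609, which works with the cohesin loader NIPBL, stood at 16.7, 22.6 and 22.6 CPM in wild type and 19.1, 15.6 and 17.8 in knockout (-0.23 ± 0.13). Zfp622, an assembly factor of the large ribosomal subunit, was at 20.7, 20.3 and 18.9 against 19.8, 18.1 and 17.7 CPM (-0.11 ± 0.084). Zfp830, a splicing-associated protein, was at 31.4, 27.9 and 35.1 against 28.9, 31.6 and 29.5 CPM (-0.07 ± 0.097). The groups overlapped in all 3. Zfp687, a partner of ZMYND8, differed by -0.09 ± 0.087, and Zfp652, a partner of the CBFA2T3 corepressor, by 0.02 ± 0.088. Zfp750, a factor of epidermal differentiation, was low at 4.96, 5.50 and 5.32 against 5.52, 4.39 and 4.15 CPM. Zfp711, which binds with the demethylase PHF8, was lower still at 1.88 to 2.08 CPM in wild type and 1.99 to 2.39 in knockout.

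Split by the KRAB-like box, the members lay on opposite sides of 0 by small amounts. The 78 tested members with it had a median log2 fold change of 0.05, with 51 higher and 27 lower, and the 48 without it -0.06, with 19 higher and 29 lower. Among Zfp1 to Zfp599, a split added after these values were seen, the medians were 0.05 in 85 genes with a box and -0.05 in 95 without. The members with a box had longer finger arrays and a lower transcript GC content, with a median of 41.6% against 51.1% for those without. Leaving out 1 library at a time moved the medians between 0.03 and 0.08 with the box and between -0.10 and -0.02 without it.

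Transcript GC content moved with the fold change in all genes, not in the members alone. GC values of the longest annotated transcript were at hand for 128 of the 131 tested members, and the 4 bins were chosen after the values were seen. Under 40% GC, 35 members had a median log2 fold change of 0.09 (28 higher, 7 lower) and all 760 genes in that bin 0.06. From 40 to 45% the medians were 0.04 in 37 members and 0.03 in 2664 genes. From 45 to 50% they were 0.01 in 18 members and -0.0037 in 3523 genes. At 50% or more they were -0.08 in 38 members (12 higher, 26 lower) and -0.03 in 6501 genes. The part of GC content in the values of KRAB members was not tested.

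**Figure D3:**
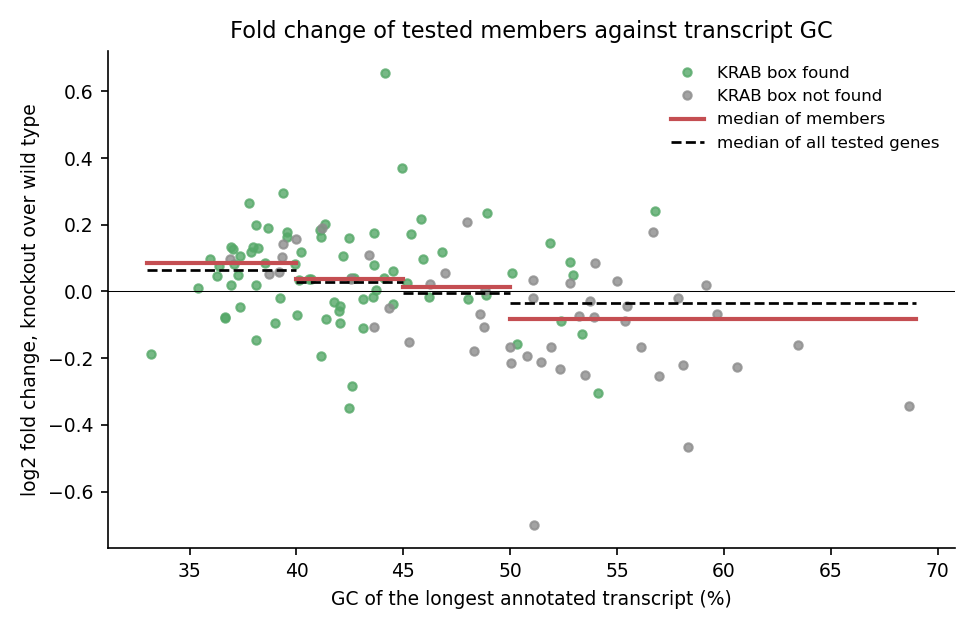
Log2 fold change, knockout over wild type, of tested members against the GC percentage of their longest annotated transcript, with KRAB-like boxes in green and none found in grey. Solid red lines give the members' medians in 4 GC bins, from 0.09 under 40% to -0.08 at 50% or more, and dashed lines the medians of all tested genes.

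By number of fingers the medians were -0.08 in 17 members with 0 to 4, 0.04 in 38 with 5 to 9, 0.02 in 45 with 10 to 14 and 0.04 in 26 with 15 or more. Zfp619, the protein with 33 fingers, was at 6.30, 6.74 and 6.88 CPM in wild type and 6.49, 7.84 and 6.20 in knockout, and the groups overlapped.

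Joining members whose deposited loci start within 500 kb of each other, and keeping groups of 3 or more, gave 13 chromosomal clusters with 70 of the 139 members. A gap of 200 kb also gave 13, with 59 members, and 1000 kb gave 14, with 75. The 67 tested members in clusters had a median log2 fold change of 0.04 (42 higher, 25 lower), and the 64 outside -0.02 (30 higher, 34 lower). KRAB members had similar medians in clusters (0.05, 51 genes) and outside (0.04, 27 genes).

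The cluster with most tested members lies on chromosome 17 from 21383747 to 22867134 and runs from Zfp677 to Zfp945. All 11 of its genes were tested and all carry a KRAB-like box, with a median transcript GC of 37.4% and levels of 0.695 to 8.11 FPKM. In the edgeR fit 10 were higher and 1 lower by sign, with a median log2 fold change of 0.08, and no gene separated the genotypes. By sign 48.3% of all genes were higher, and 68.0% of all genes under 40% transcript GC. In the authors' deposited FPKM, Zfp758 (log2 ratio -0.05) and Zfp946 (-0.03) were lower too. Zfp944 was at 16.8, 12.5 and 14.5 CPM in wild type and 16.3, 15.5 and 18.1 in the knockouts (0.19 ± 0.12). That value was 0.09 without wild-type library 1 and 0.31 without wild-type library 0. Zfp677, the 1 lower gene in the fit, was at 5.11, 4.89 and 4.41 against 4.16, 4.25 and 4.64 CPM (-0.15 ± 0.14). Genes of such arrays are close copies, and fragments that fit several of them may have been divided among them.

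The next cluster, on chromosome 7 from 127244525 to 127890970, held 9 tested members, 4 with a KRAB-like box, at a median GC of 53.2%. There 2 were higher and 7 lower, with a median of -0.07. Zfp771 was lowest (-0.34 ± 0.18), at 8.68, 11.6 and 6.94 CPM in wild type and 7.97, 7.18 and 6.47 in knockout, with overlap that involved wild-type library 2. Without wild-type library 1 it was -0.12. Zfp688 was highest (0.15 ± 0.15), and 0.04 without wild-type library 0. The third, on chromosome 6 from 47819265 to 48623227, held 7 tested members, with 5 higher and 2 lower and a median of 0.05, from Zfp746 at -0.17 to Zfp775 at 0.18 ± 0.12, which was 0.11 without knockout library 1. In the remaining 10 clusters, of 3 to 6 tested members, the medians ranged from -0.16 (Zfp628 to Zfp784, chromosome 7) to 0.22 (Zfp954 to Zfp772, chromosome 7). That of Zfp810 had a median of 0.03, since Zfp653 and Zfp809 each lay at 0.03.

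**Figure D4:**
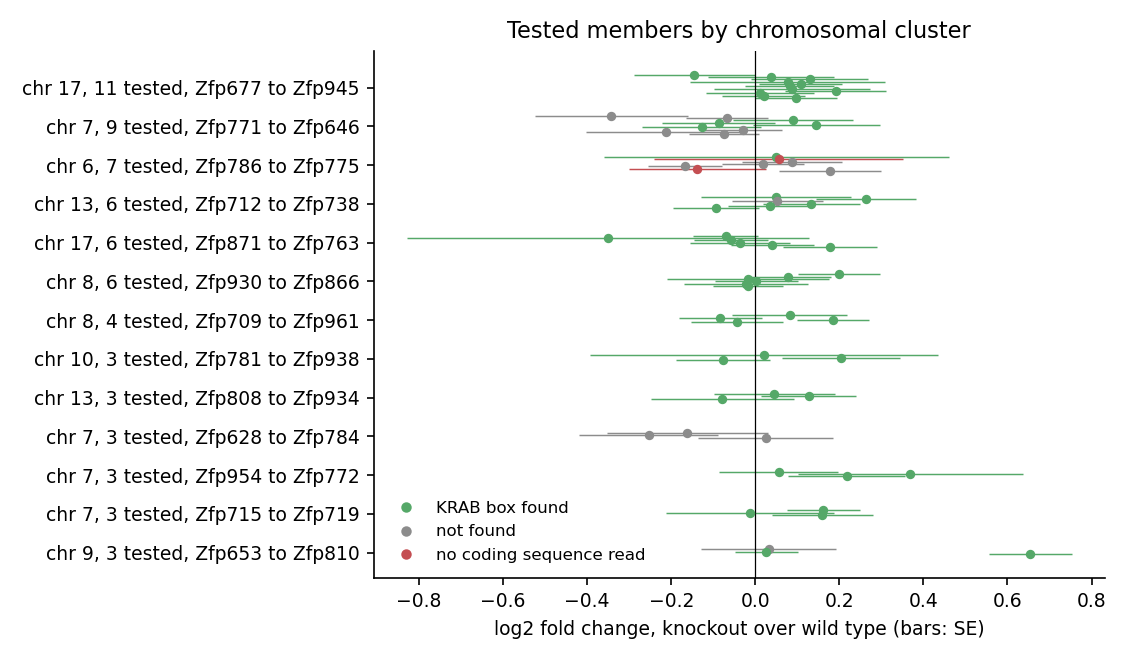
Log2 fold change, knockout over wild type, with SE bars, of the tested members in 13 chromosomal clusters, coloured by whether a KRAB-like box was found. 10 of the 11 points of the first chromosome 17 cluster lie right of 0, and Zfp810, at 0.65 in the bottom row, lies farthest right.

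The corepressor genes through which KRAB proteins act differed in either sign. Of a list of 37 genes, 35 were in the table and tested, with 15 higher, 20 lower and a median log2 fold change of -0.01. edgeR and DESeq2 each called 0 of them after adjustment, and in edgeR 1 (Dnmt3a) was below 0.05 unadjusted. Trim28, the shared corepressor, was at 59.0, 56.8 and 52.8 CPM in wild type and 58.1, 54.0 and 61.1 in knockout (0.04 ± 0.076). Setdb1, the histone H3 lysine methyltransferase of the complex, was at 41.7 ± 1.15 and 41.1 ± 3.24 CPM (SD, n = 3 each). Both overlapped between groups. In 3 genes, Dnmt3a, Dnmt3b and Uhrf1, all knockouts lay below wild type, which is 8.57% of the list against 6.96% of all genes. Dnmt3a, a de novo DNA methyltransferase, was at 60.3, 59.8 and 65.1 against 56.5, 56.1 and 53.9 CPM (-0.15 ± 0.067). Uhrf1, which guides maintenance methylation, was at 1.83 ± 0.375 and 1.29 ± 0.047 CPM (-0.51 ± 0.25), and Dnmt3b at 2.04 ± 0.318 and 1.47 ± 0.304 CPM (-0.49 ± 0.25). Both were highest in wild-type library 0, the library with most injury and immune marker RNA. In wild-type libraries 1 and 2 Uhrf1 stood at 1.75 and 1.49 CPM, against at most 1.33 in knockouts. Dnmt3b stood there at 1.99 and 1.75 CPM, against at most 1.73. The part of injury or immune cells in these values was not tested.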

How the data were processed

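Right kidney RNA of 3 Far2 knockout and 3 wild-type mice was sequenced. The submitters' processing notes list, without roles, Cuffdiff, Cufflinks 2.2.1, SAMtools 1.2, TopHat2 2.0.13, cutadapt 1.2.1, Bowtie2 2.2.3 and the build mm10. No source used here gives the gene models or how multiply aligned fragments were treated. The deposited table gives estimated counts (raw fragments) and FPKM per gene and library. The authors' comparison table gives group FPKM, a log2 fold change, a p-value and a q-value. Libraries are numbered 0 to 2 in each genotype and match no sample label.

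Estimated counts were rounded to whole numbers, filtered with filterByExpr, scaled by TMM and fitted over all genes in edgeR 4.0.16, with Benjamini-Hochberg adjustment. Alternatives used DESeq2 1.42.0, limma 3.58.1 (voom, or log2(FPKM + 1) and log2(FPKM + 0.1)), other scalings and filters, and each library left out. The scripts were tested on simulated data. Symbols matched GENCODE vM21 for 136 members.

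Members, lists and tests were chosen with earlier results of these data known. Named genes were Zfp810 and its cluster, the 10 highest by FPKM, up to 8 per direction without overlap at a log2 CPM of 0 or more, cluster and finger extremes, and genes nearest the filter. The labels do not say how far the libraries of a genotype are independent, so p-values measure only the spread between them. Some near-identical genes may share fragments.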

Additional observations from a re-analysis of the deposited data

How the results depend on the processing

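edgeR's quasi-likelihood test called 0 members at adjusted p 0.05 or 0.10, under other scalings, filters, limma and every left-out library; DESeq2 called 1, Zfp810, both on the filtered genes and, as an alternative added after the data were seen, on all genes with a count. DESeq2 was first run on all genes with a count and moved to the filtered set after its number of calls over all genes had been seen (11 and then 13). The count at an unadjusted p under 0.05 was 1 with DESeq2 on the filtered genes (1 higher), and 1 member was lower under upper-quartile scaling. Leaving out each library gave 2 to 13 such members, 1 to 8 of them higher and 0 to 5 lower, with 13 reached without wild-type library 0; the shares of all genes were 1.18 to 4.11% higher and 2.35 to 7.06% lower. The counts without overlap were 10 to 21 higher and 8 to 20 lower, where 9.43 to 14.2% and 9.93 to 15.4% of all genes separated; the highs came without wild-type library 0 and knockout library 0. The median of Zfp1 to Zfp599 ran from -0.050 to 0.0021, and that of the members from -0.0029 (without wild-type library 1) to 0.03; the cause was not tested. Zfp810 kept its sign in all 15 alternatives, from 0.56 to 0.74. On log2(FPKM + 1) the medians with and without a KRAB-like box were 0.01 and -0.02. No paired analysis was possible because the library numbers match no sample label. edgeR called 0 of 14354 genes after adjustment, so Zfp810 itself was not called. A difference of its size could thus be missed in members with many fragments too. Few fragments limit the 23 members under 1 FPKM further.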
